A study of Mus musculus with 8 samples.

Results

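This report concerns the genes of amino acid and peptide transporters in the gut of Apc mutant mice. The members are the genes whose symbols place them in the Slc1, Slc3, Slc6, Slc7, Slc15, Slc36, Slc38 or Slc43 families, with pseudogenes left out. There are 72 of them among the 43629 genes of the deposited count table. Of these, 68 encode carriers or their heavy chains, and the other 4 (Slc6a19os, Slc7a6os, Slc36a1os and Slc36a3os) are neighbouring genes named after a carrier.

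The 8 polyadenylated RNA-seq libraries are 4 of tumor and 4 of small intestine, all from C57B6/129 mice of the same APC mutant genotype and all untreated. The allele, the age of the mice, the stretch of intestine and any pooling of animals do not appear in the labels, and nothing says that the libraries of a tissue came from separate animals. P-values therefore cover only the variation among these libraries, part or all of which may be technical. The series title mentions high-fructose corn syrup, but no library used here is labelled as having received it. Mutation of Apc, a brake on Wnt signaling, lets adenomas form in the gut, so the comparison sets tumor against intestine of mice that carry the same mutation.

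Dietary protein reaches the enterocyte as short peptides and free amino acids. Carriers of the brush border (the apical membrane) take these up with sodium or protons, and a separate set of carriers on the basolateral side passes them to the blood. Several carriers work as pairs: a light chain of the Slc7 family, which moves the amino acid, is joined by a disulfide bond to a heavy chain, Slc3a1 (rBAT) or Slc3a2 (4F2hc, also known as CD98). Dividing cells rely on another set, among them Slc7a5, Slc1a5, Slc7a11 and some Slc38 carriers, to bring in essential amino acids, glutamine, cystine and small neutral amino acids.

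The data bear on carriers that fell or rose together, so the stretch just before the RefSeq transcription start (build GRCm38.p6) is shown for 4 of them: the peptide carrier and a heavy chain, both far lower in tumor, and the cystine carrier and Slc38a4, both higher. Each run holds the 250 bases before the start, 5′ to 3′ on the strand of the gene, with capitals for any match to the motifs named after the sequences. The windows lie at chr14:121505255-121505504 (minus strand) for Slc15a1, chr17:85028097-85028346 (plus strand) for Slc3a1, chr3:50443614-50443863 (minus strand) for Slc7a11, and chr15:97055957-97056206 (minus strand) for the outermost of the RefSeq starts of Slc38a4.
Slc15a1: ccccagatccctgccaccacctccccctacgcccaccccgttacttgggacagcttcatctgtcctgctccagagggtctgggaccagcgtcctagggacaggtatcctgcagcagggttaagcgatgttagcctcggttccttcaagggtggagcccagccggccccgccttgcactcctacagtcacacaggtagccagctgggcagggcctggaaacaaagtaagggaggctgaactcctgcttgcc
Slc3a1: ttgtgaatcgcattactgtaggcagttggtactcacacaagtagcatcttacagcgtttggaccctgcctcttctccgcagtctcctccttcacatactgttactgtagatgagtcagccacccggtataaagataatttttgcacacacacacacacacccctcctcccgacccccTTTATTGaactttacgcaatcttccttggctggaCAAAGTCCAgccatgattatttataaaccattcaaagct
Slc7a11: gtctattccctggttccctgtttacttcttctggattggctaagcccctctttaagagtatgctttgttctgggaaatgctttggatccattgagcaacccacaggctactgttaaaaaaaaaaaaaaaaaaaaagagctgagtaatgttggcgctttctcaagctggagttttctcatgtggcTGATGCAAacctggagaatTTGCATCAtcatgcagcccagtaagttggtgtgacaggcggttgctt
Slc38a4: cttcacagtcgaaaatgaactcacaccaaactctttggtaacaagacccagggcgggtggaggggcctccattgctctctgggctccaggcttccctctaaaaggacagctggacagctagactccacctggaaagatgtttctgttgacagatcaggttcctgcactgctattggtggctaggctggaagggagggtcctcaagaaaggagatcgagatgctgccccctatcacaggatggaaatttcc
The motifs, searched on both strands with each counted separately where matches overlap, were CACGTG (E-box), TGATGNAA (amino acid response element), TGACNNNGC (antioxidant response element), CTTTGAT (TCF/LEF), CAAAGTCCA (HNF4), and TTTATNG (CDX), beside the longer HNF1 motif. In Slc7a11 the capitals are a pair of amino acid response elements facing each other, 66 to 59 and 47 to 40 bases before the start, a motif that 3.9% of the 27025 genes in the promoter table hold in this window. In Slc3a1 they are a CDX match and, 39 to 31 bases before the start, an HNF4 match, which 11.3% and 0.5% of all genes hold. Slc15a1 and Slc38a4 held none of the motifs in the stretch shown. A match is a description of the letters and does not show that a factor binds.

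Promoter entries were found for 49 of the 68 carriers, 14 of them higher and 21 lower in tumor by the test described next. The antioxidant response element was matched in 6 of the 14 higher genes (Slc38a2, Slc43a1, Slc6a13, Slc6a9, Slc7a1 and Slc7a6) and 0 of the 21 lower ones, against 11.5% of all genes. It was matched in 8 of the 49 carriers in all, and no difference in motifs between higher and lower genes was tested. The E-box was matched in 3 and 1 (6.9% of all genes), the TCF/LEF motif in 1 and 3 (3.7%), the amino acid response element in 1 and 1, the HNF4 motif in 0 and 1, the CDX motif in 0 and 2, and the HNF1 motif in 0 and 0 (0.4% of all genes).

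In tumor 9 of the 10 genes listed for apical uptake and 3 of 3 for basolateral exit fell. Of the 15 listed for the 4F2 heavy chain and uptake in dividing cells, 13 rose and the other 2 fell. These lists were chosen with earlier results of these data known, so the counts describe the lists and are not a test of them. Of the 72 genes, 55 had enough reads for the test, edgeR's quasi-likelihood test on counts with Benjamini-Hochberg adjustment over all 17029 genes tested, called at an adjusted p under 0.05. In tumor 21 of the 55 were higher, a share of 38.2% that lies at the 38.9% of all tested genes. Lower were 27, or 49.1%, against 35.4% of all tested genes. In all 87.3% were called, against 74.3% of all tested genes. The groups did not overlap in 45 of 55 genes, and in 70.5% of all tested genes. Where the transporters departed most from the rest was in the size of the falls: 15 of the 55 were called at least 16-fold lower, against 3.66% of all tested genes. In these bulk tissues, fewer cells of a type and less RNA per cell cannot be told apart.

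Levels are given as CPM, the counts of a gene scaled to a fixed library size after TMM correction, which assumes that most genes do not change. Scaling to library totals alone moves the median of all genes up by 0.863 on the log2 scale, so the sizes of changes depend on the scaling. Falls of about that size or less can vanish or turn, while rises become larger. With totals alone 26 of the 55 transporter genes were higher (62.0% of all tested genes were) and 23 lower (17.6% of all tested genes, 79.6% being called in either direction). Library totals ran from 53856561 to 84433335 counts, so that 3 counts correspond to 0.0331 to 0.0630 CPM.

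Cell markers moved with these results. All 11 enterocyte markers fell, the median change being -6.42 on the log2 scale, and their summed level was 757 to 1202 CPM in tumor and 41192 to 55903 CPM in small intestine. Of 6 general epithelial markers 5 fell and Krt18 rose, with a median of -1.29 and a summed level of 5864 to 8082 CPM in tumor and 13560.0 to 18214 CPM in small intestine; with library totals alone 3 fell and 2 rose. The surface marker Epcam was at 1525 ± 209 CPM in the tumor libraries against 3662 ± 837 CPM in the intestine libraries (SD of 4 libraries each). Fibroblast markers rose in 7 of 7 cases (1211 to 1923 CPM summed in tumor, 25.8 to 70.2 in small intestine), endothelial markers in 5 of 5 (181 to 240.5 against 10.6 to 27.9 CPM) and macrophage markers in 6 of 6 (172 to 279.5 against 66.0 to 104 CPM). Smooth muscle markers rose in 4 of 6, platelet and erythroid markers in 5 of 5 and the 1 tested of 5 enteric glia markers rose. T cell markers fell in 6 of 6 (15.8 to 28.7 CPM against 54.4 to 212 CPM) and enteroendocrine markers in 7 of 8 (6.60 to 30.2 CPM against 256 to 359.9 CPM). B and plasma cell markers fell in 4 of 5, but their summed levels overlapped, at 177 to 841 CPM in tumor and 173 to 987 CPM in small intestine. Pancreatic acinar markers were near 0 in both tissues, at a summed 0.141 CPM or less in each library. The part of these shifts in the changes of the transporters was not tested.

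**Figure D1:**
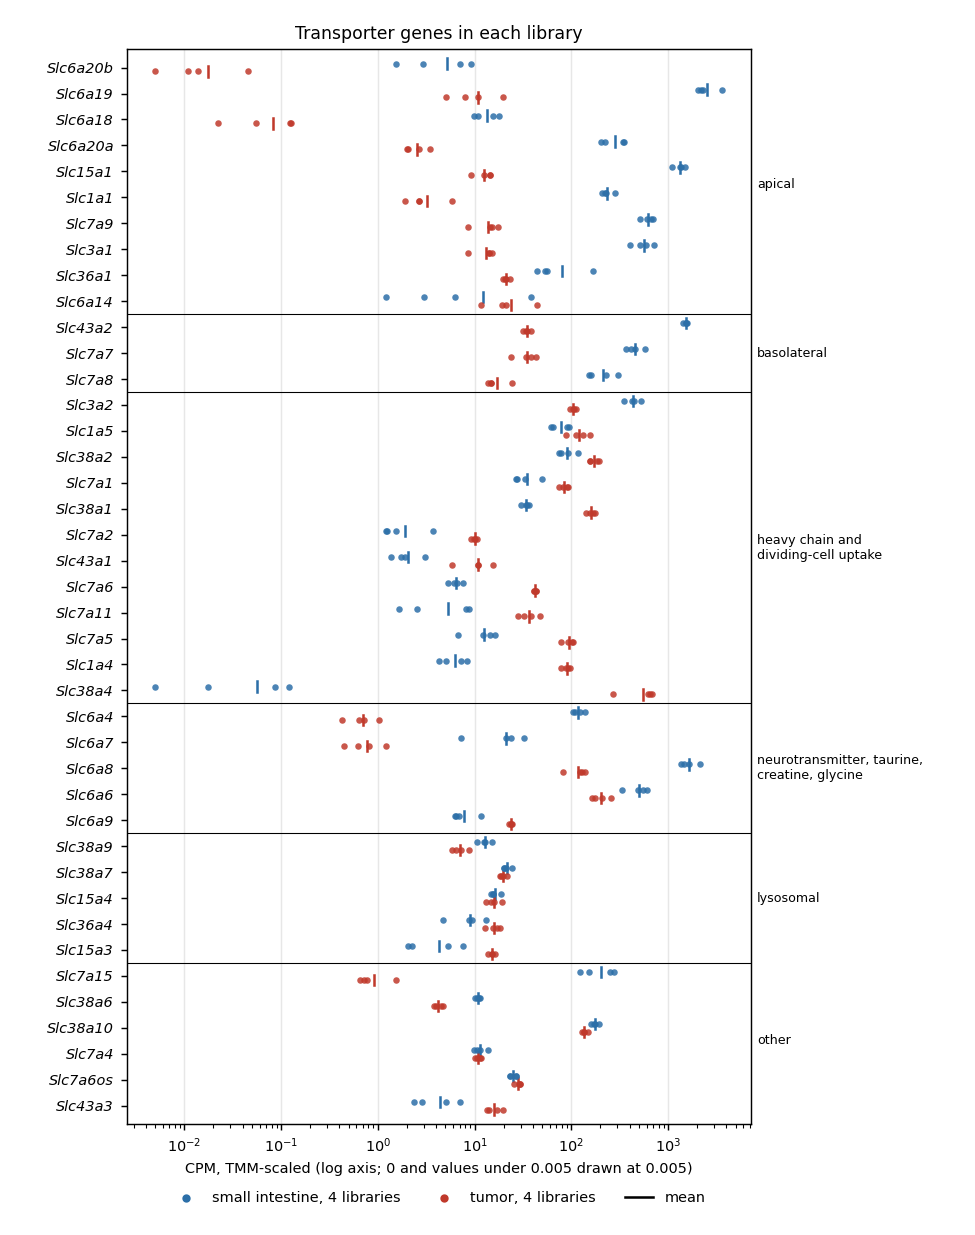
Level of the 41 transporter genes that reached a mean of 10 CPM in either tissue or were named for their role, in each of the 4 tumor (red) and 4 small intestine (blue) libraries, as TMM-scaled CPM on a log axis with the mean of each tissue as a bar. Apical and basolateral carriers sit to the left in tumor, except Slc6a14, whose groups overlap, and Slc38a4 shows the widest gap in the other direction.

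Of the 10 carriers listed for uptake at the brush border, 9 fell in tumor and Slc6a14 did not pass the test, at a median log2 value of -6.45 beside 0.07 for all tested genes. The same 9 were lower with library totals alone, with a median of -5.59.

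Slc15a1 encodes PepT1, which carries di- and tripeptides into the enterocyte with protons. In tumor libraries 1 to 4 it stood at 12.4, 14.4, 14.4 and 9.102 CPM and in small intestine libraries 1 to 4 at 1346, 1101, 1333 and 1491 CPM. The lowest intestine library was far above the highest tumor library, and the log2 fold change was -6.71 ± 0.22 (SE; edgeR quasi-likelihood adjusted p = 3.33e-08). Slc6a19 encodes B0AT1, the main sodium-driven carrier of neutral amino acids at the brush border. Its levels were 5.12, 19.8, 7.92 and 10.9 CPM in the tumor libraries against 2322, 2211, 2024 and 3641 CPM in the intestine libraries, a log2 fold change of -7.86 ± 0.51. Tumor library 2 was the highest of its tissue and intestine library 4 the highest of the other, with no overlap. The gene (ENSMUSG00000021565, protein-coding) lies on chromosome 13 from 73679745 to 73704865 in GRCm38.

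The heteromer of Slc3a1 and Slc7a9 exchanges cystine and cationic amino acids at the brush border, and both chains fell by a similar amount. Slc3a1 was at 14.1, 15.1, 14.3 and 8.47 CPM in the tumor libraries against 512, 590.2, 407 and 722 CPM in the intestine libraries. Slc7a9 was at 15.03, 14.5, 17.3 and 8.49 CPM in the tumor libraries against 609.7, 695, 516 and 659 CPM in the intestine libraries. The log2 fold changes were -5.43 ± 0.26 for the heavy chain and -5.48 ± 0.25 for the light chain, and tumor library 4 was the lowest tumor library for both. The exons of Slc3a1 overlap those of Prepl on the other strand over 26.5% of their length, and without a known strand setting the reads of the overlap cannot be told apart. The same holds for Slc1a1 with 4430402I18Rik (31.9%), Slc6a20b with Sacm1l (21.1%), Slc6a9 with Ccdc24 (27.8%) and Slc15a3 with Tmem132a (28.1%).

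Slc1a1, the carrier of glutamate and aspartate, was at 2.67, 2.64, 5.78 and 1.92 CPM in the tumor libraries against 230.1, 284, 208 and 221 CPM in the intestine libraries. The imino acid carrier gene Slc6a20a, which handles proline, was at 1.997, 3.48, 2.65 and 2.06 CPM in the tumor libraries against 354, 221, 202 and 346 CPM in the intestine libraries. Neither gene overlapped between tissues, and the log2 fold changes were -6.18 ± 0.37 and -6.78 ± 0.30. Slc6a20b, the adjacent copy, was far less abundant, at 0.0175 ± 0.0193 CPM in the tumor libraries against 5.18 ± 3.56 CPM in the intestine libraries (SD of 4 libraries each). Its log2 fold change of -8.03 stood at -8.95 without tumor library 4. Of the 50-base stretches in Slc6a20a transcripts, 15.3% also occur in Slc6a20b, which may affect the counts of both copies. Slc6a18, best known as a kidney relative of Slc6a19, was at 0.0818 ± 0.0514 CPM in the tumor libraries against 13.5 ± 3.92 CPM in the intestine libraries, a log2 fold change of -7.37 ± 0.48.

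A pair of apical carriers stood apart from this pattern. Slc36a1, a proton-coupled carrier of glycine, alanine and proline that is also found in lysosomes, was at 20.6, 19.9, 21.3 and 23.4 CPM in the tumor libraries against 52.9, 56.5, 168 and 43.8 CPM in the intestine libraries. Intestine library 3 held about as much as the other intestine libraries together, and the log2 fold change of -1.92 ± 0.40 stood at -1.27 without it, still called (edgeR adjusted p = 1.78e-05). On the deposited FPKM values it was not called (limma adjusted p of 0.1103 to 0.184 over the settings tried), whereas it was called under every alternative on counts. Slc6a14, a carrier of broad specificity for neutral and cationic amino acids, was at 44.4, 19.3, 11.5 and 20.9 CPM in the tumor libraries against 6.29, 38.4, 3.002 and 1.22 CPM in the intestine libraries. Intestine library 2 lay above all tumor libraries except tumor library 1, the groups overlapped, and the log2 fold change of 0.97 ± 0.92 did not pass (edgeR adjusted p = 0.356). Without intestine library 2 it was 2.77 and passed (edgeR adjusted p = 0.00408).

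The 3 carriers listed for exit across the basolateral membrane also fell, at a median log2 value of -3.70 (-2.83 with library totals alone). Slc43a2 (LAT4), which releases branched-chain amino acids, phenylalanine and methionine, was at 38.2, 34.9, 31.5 and 34.1 CPM in the tumor libraries against 1428, 1545, 1573 and 1542 CPM in the intestine libraries. The libraries of each tissue lay close together, and the log2 fold change was -5.46 ± 0.13. Slc7a7 (y+LAT1), the light chain that exports cationic amino acids, was at 42.8, 38.1, 33.7 and 23.9 CPM in the tumor libraries against 367, 455, 411 and 573 CPM in the intestine libraries. Slc7a8 (LAT2), an exchanger of neutral amino acids, was at 14.6, 13.8, 14.7 and 24.3 CPM in the tumor libraries against 161, 154, 301 and 228 CPM in the intestine libraries. The log2 fold changes were -3.70 ± 0.22 and -3.64 ± 0.28. Tumor library 4 was the lowest tumor library for Slc7a7 and the highest for Slc7a8.

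Of the 15 genes listed for the 4F2 heavy chain and for uptake in dividing cells, 13 rose and 2 fell (Slc3a2 and Slc38a3), at a median log2 value of 2.38 beside 0.07 for all tested genes. With library totals alone 13 rose and 1 fell.

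The largest rise among the tested members belonged to Slc38a4 (SNAT4), a sodium-coupled carrier of neutral and cationic amino acids that is abundant in liver and is an imprinted gene in the mouse. In tumor it stood at 653, 624, 678 and 270.2 CPM, and in small intestine at 0.122, 0.0177, 0 and 0.0863 CPM. All 4 tumor libraries were far above all intestine libraries, and tumor library 4 was the lowest of the tumor libraries. The counts were 182094 over the tumor libraries and 13 over the intestine libraries. The log2 fold change was 13.16 ± 0.59 (edgeR adjusted p = 1.39e-07), and 13.80 without intestine library 1. The gene (ENSMUSG00000022464, protein-coding) lies on chromosome 15 from 96994820 to 97055956 in GRCm38, minus strand, next to its relatives Slc38a2 and Slc38a1.

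Slc38a1 and Slc38a2 carry glutamine and small neutral amino acids, and Slc38a2 is known to be induced when amino acids run short. Slc38a1 was at 156, 169, 143 and 176 CPM in the tumor libraries against 34.1, 36.6, 30.5 and 35.02 CPM in the intestine libraries. Slc38a2 was at 156, 183, 193 and 155 CPM in the tumor libraries against 117, 75.2, 91.96 and 79.2 CPM in the intestine libraries. Neither overlapped, and the log2 fold changes were 2.24 ± 0.10 and 0.92 ± 0.15. The second is of about the size of the shift between scalings and was 1.77 with library totals alone.

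The alanine, serine and cysteine carriers of the Slc1 family rose unequally. Slc1a4 (ASCT1) was at 91.4, 97.6, 88.96 and 79.1 CPM in the tumor libraries against 8.301, 5.02, 7.29 and 4.295 CPM in the intestine libraries, a log2 fold change of 3.84 ± 0.22. Slc1a5 (ASCT2), the better known glutamine carrier of tumor cells, was at 87.5, 131, 111 and 155 CPM in the tumor libraries against 93.7, 64.9, 90.4 and 61.6 CPM in the intestine libraries. Tumor library 1 lay inside the range of the intestine libraries, and the log2 fold change was 0.64 ± 0.20 (edgeR adjusted p = 0.0163), within the shift between scalings. With the replicate number as a block the edgeR adjusted p was 0.0561.

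Slc7a5 (LAT1) brings leucine and other large neutral amino acids into cells. It was at 93.04, 101, 78.9 and 104 CPM in the tumor libraries against 14.5, 12.4, 16.3 and 6.76 CPM in the intestine libraries, with no overlap and a log2 fold change of 2.92 ± 0.25 (edgeR adjusted p = 5.62e-06). The gene (ENSMUSG00000040010, protein-coding) lies on chromosome 8 from 121881150 to 121907694 in GRCm38. Slc7a11 (xCT) exchanges glutamate for cystine, the source of cysteine for glutathione. Its levels were 32.7, 38.1, 28.2 and 47.5 CPM in the tumor libraries against 8.77, 8.06, 2.54 and 1.66 CPM in the intestine libraries. Intestine libraries 1 and 2 were above intestine libraries 3 and 4 but below each tumor library, and the log2 fold change was 2.80 ± 0.51. Slc7a6 (y+LAT2), another 4F2 light chain, showed 2.72 ± 0.13, rising from 6.39 ± 0.968 to 42.1 ± 1.37 CPM (SD of 4 libraries each).

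The heavy chain that Slc7a5, Slc7a6 and Slc7a11 need for their place in the membrane went the other way. Slc3a2 was at 105, 107, 96.96 and 111 CPM in the tumor libraries against 349.5, 429, 447 and 531 CPM in the intestine libraries. Every tumor library lay below every intestine library, and the log2 fold change was -2.07 ± 0.14 (edgeR adjusted p = 1.07e-06), or -1.19 with library totals alone. Slc3a2 is also the heavy chain of Slc7a7 and Slc7a8, which fell.

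The order of the 4F2 light chains differed between the tissues. Levels of different genes are compared here as CPM per kilobase of merged exons in the GENCODE M21 annotation, since Slc7a5 was not in the FPKM table used here. In small intestine the heavy chain Slc3a2 was at 124 ± 21.1, and the light chains, in falling order, were Slc7a7 at 136 ± 26.8, Slc7a8 at 42.2 ± 13.7, Slc7a5 at 3.36 ± 1.11, Slc7a6 at 1.398 ± 0.212 and Slc7a11 at 0.378 ± 0.264 CPM per kilobase (SD of 4 libraries). In tumor Slc3a2 was at 29.7 ± 1.64, Slc7a5 at 25.4 ± 2.97, Slc7a7 at 10.4 ± 2.43, Slc7a6 at 9.21 ± 0.299, Slc7a8 at 3.37 ± 0.996 and Slc7a11 at 2.63 ± 0.596 CPM per kilobase (SD of 4 libraries). Slc7a5 was thus the most abundant of these light chains in tumor and the third in intestine. In intestine Slc3a2 and Slc7a7 did not differ beyond their spread of 1 SD, and in tumor neither did Slc3a2 and Slc7a5, Slc7a7 and Slc7a6, or Slc7a8 and Slc7a11.

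Ratios of 2 carriers within a library do not depend on the scaling between libraries. The count ratio of Slc7a5 to Slc7a8, light chains with overlapping substrates, was 6.36, 7.28, 5.38 and 4.25 in tumor libraries 1 to 4 and 0.0899, 0.0803, 0.0540 and 0.0296 in small intestine libraries 1 to 4. All tumor ratios were above all intestine ratios, by 97.9-fold between the geometric means. The FPKM ratio of the cystine carriers Slc7a11 to Slc7a9 was 381-fold higher in tumor, that of the heavy chains Slc3a2 to Slc3a1 12.1-fold, and that of the neutral amino acid carriers Slc1a5 to Slc6a19 406-fold. Each of the 4 ratios was separated without overlap. The exact 2-sided permutation p was 0.0286, the smallest that 4 against 4 can give, and 0.0286 after Benjamini-Hochberg adjustment over the 4. Slc7a5, Slc7a11 and Slc1a5 rose while Slc7a8, Slc7a9 and Slc6a19 fell, and Slc3a1 fell more than Slc3a2. The ratios therefore restate the single-gene changes, and their p-values are no separate evidence.

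**Figure D2:**
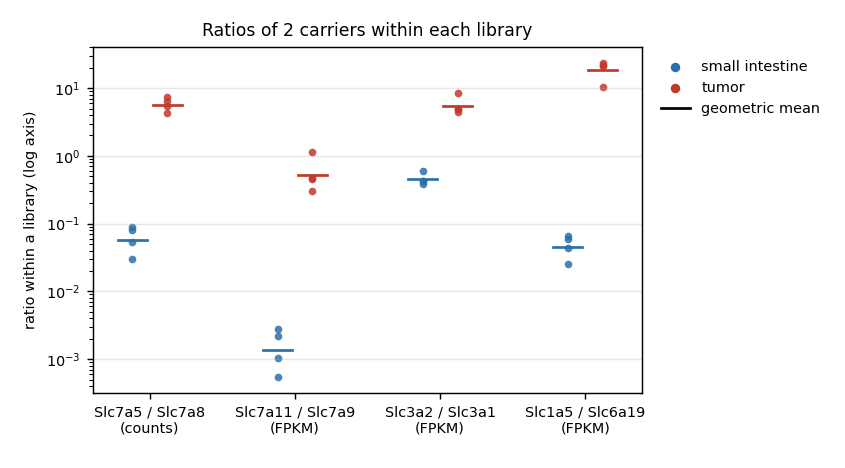
Ratio of 2 carriers within each library on a log axis, for 4 small intestine (blue) and 4 tumor (red) libraries with the geometric mean as a bar, from counts for Slc7a5 over Slc7a8 and from FPKM for the others. In each pair all tumor libraries lie above all intestine libraries, with Slc7a5 over Slc7a8 above 4 in tumor and below 0.1 in intestine.

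Carriers of cationic amino acids that need no heavy chain rose as well. Slc7a1 (CAT1) was at 82.4, 89.9, 75.2 and 91.9 CPM in the tumor libraries against 27.5, 33.3, 50.1 and 26.8 CPM in the intestine libraries, a log2 fold change of 1.30 ± 0.20. Its relative Slc7a2 was at 10.2, 10.6, 9.93 and 9.24 CPM in tumor libraries 1 to 4 against 1.53, 1.22, 3.72 and 1.24 CPM in intestine libraries 1 to 4, with a log2 fold change of 2.38 ± 0.37. The facilitative carrier Slc43a1 (LAT3) was at 15.6, 10.8, 10.9 and 5.79 CPM in the tumor libraries against 3.11, 1.91, 1.72 and 1.38 CPM in the intestine libraries, a log2 fold change of 2.41 ± 0.35. The groups of neither gene overlapped, and Slc43a2, the relative of Slc43a1, fell as described. Slc7a3, at 0.346 against 0.0898 CPM, rose by a log2 value of 1.91. Slc38a5 had 122 counts in tumor and 0 in the intestine libraries, at least 6.62-fold higher in tumor when each intestine library is set to a floor of 3 counts. Slc38a3, at under 3 CPM in each library, had a log2 fold change of -1.39 (edgeR adjusted p = 0.0273) with groups that overlapped; it was not called with library totals alone or without any of tumor libraries 2, 3 or 4 or intestine libraries 1, 2 or 4 (edgeR adjusted p of 0.0512 to 0.0789 in these last).

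**Figure D3:**
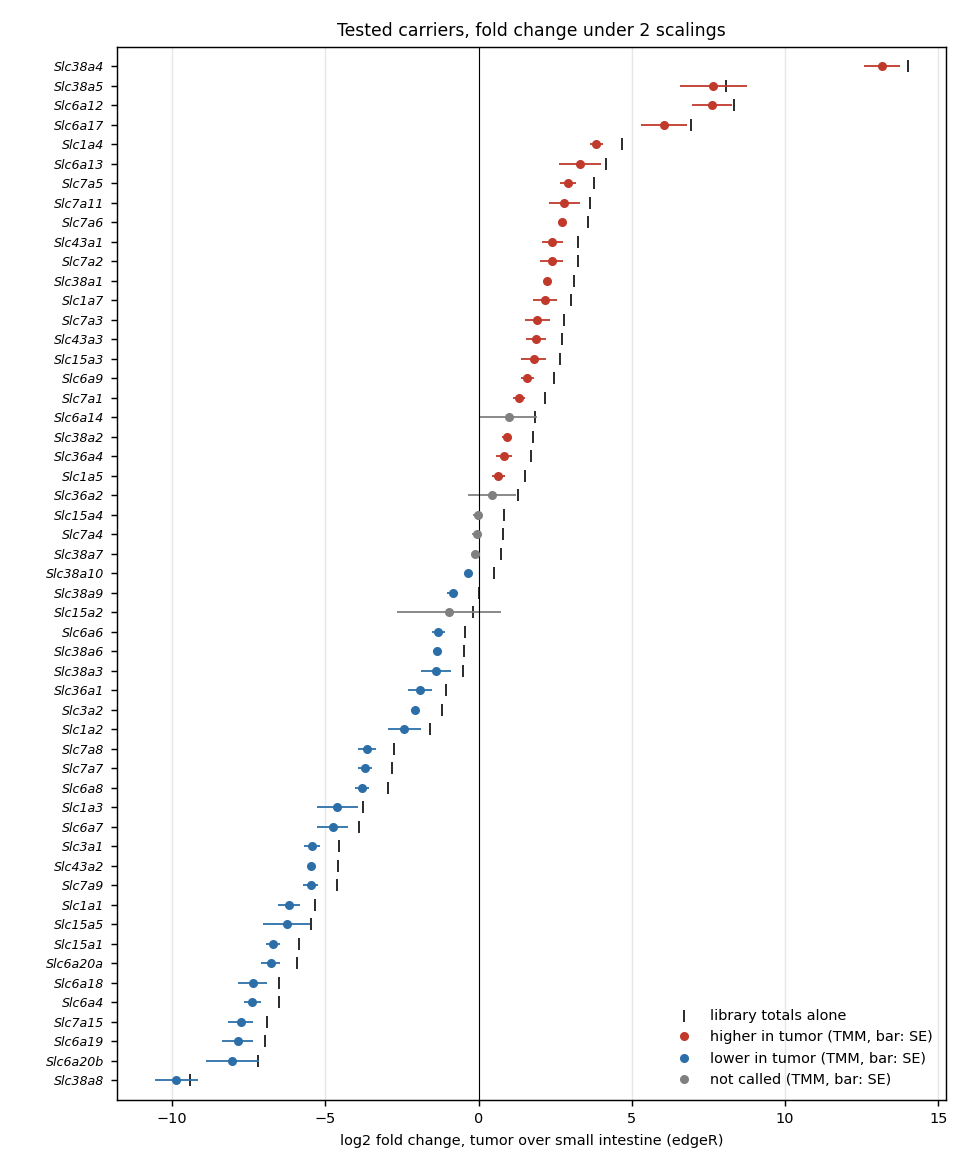
Log2 fold change of tumor over small intestine for the 53 tested carriers (edgeR, TMM scaling, bars show the SE), with black ticks for scaling to library totals alone. Red carriers were called higher, blue lower and grey not called; the values of Slc38a5 and Slc38a8, which had 0 counts in a tissue, depend on the prior count of the fit.

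Among the 15 carriers listed for neurotransmitters, taurine, creatine and glycine, 8 were tested, of which 4 rose and 4 fell; with library totals alone 4 rose and 3 fell. Slc6a4, the serotonin transporter, which in the gut clears serotonin into enterocytes and enteric neurons, was at 0.4303, 0.644, 0.727 and 1.04 CPM in the tumor libraries against 109, 104, 139 and 122 CPM in the intestine libraries. The intestine libraries were all above 100 CPM and the tumor libraries near 1 CPM or below, a log2 fold change of -7.38 ± 0.27 (edgeR adjusted p = 5.63e-08). Of 7 enteric neuron markers 3 rose and 1 fell, with summed levels of 20.2 to 49.1 CPM in tumor and 7.56 to 17.3 CPM in small intestine, while the defining marker Elavl4 was too low to test.

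Slc6a8 imports creatine, and Slc6a6 imports taurine, which is joined to bile acids and serves as an osmolyte. Slc6a8 was at 128, 123, 138 and 82.8 CPM in the tumor libraries against 1643, 1470.3, 1371 and 2145 CPM in the intestine libraries, a log2 fold change of -3.81 ± 0.22. Slc6a6 was at 174, 208, 165 and 256 CPM in the tumor libraries against 557, 330.4, 493 and 611 CPM in the intestine libraries. Its log2 fold change of -1.31 ± 0.21 became -0.44 and was not called with library totals alone (edgeR adjusted p = 0.0833). Slc6a7, the proline carrier of the brain, was low at 0.779 ± 0.335 CPM in the tumor libraries against 21.2 ± 10.4 CPM in the intestine libraries (SD of 4 libraries each), and fell by a log2 value of 4.76. Slc6a9, the glycine transporter GlyT1, rose from 7.83 ± 2.54 to 23.6 ± 0.586 CPM, a log2 fold change of 1.59 ± 0.20.

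A further group of Slc6 genes rose from almost nothing to low levels. The betaine and GABA carrier gene Slc6a12 had 416 counts in tumor and 1 in small intestine, a ratio of 276 with a 95% exact binomial interval of 49.2 to 10913 that covers counting error only. Its log2 fold change of 7.60 stood at 9.44 without intestine library 4. Its neighbour Slc6a13, a GABA carrier, was at 1.42 ± 0.437 CPM in the tumor libraries against 0.144 ± 0.113 CPM in the intestine libraries. Slc6a17, a vesicle carrier of neutral amino acids in neurons, was at 4.42 ± 2.03 against 0.0670 ± 0.0700 CPM (SD of 4 libraries each), a log2 fold change of 6.05 (6.70 without intestine library 3). Of the 4 glutamate carriers of the nervous system, Slc1a2 and Slc1a3 fell and Slc1a7 rose, all at about 1 CPM or less on average, and Slc1a6 was not tested.

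Carriers of lysosomes and endosomes changed less. Of the 6 listed, Slc15a3 and Slc36a4 rose, Slc38a9 fell, Slc15a4 and Slc38a7 did not pass the test, and Slc7a14 was too low to test; with library totals alone 4 rose and none fell. Slc15a3, a carrier of peptides and histidine known from immune cells, was at 16.2, 15.2, 13.9 and 14.98 CPM in the tumor libraries against 5.35, 7.68, 2.27 and 2.05 CPM in the intestine libraries, a log2 fold change of 1.79 ± 0.40. Macrophage markers rose beside it, as given above, and their part was not tested. Slc38a9, the lysosomal sensor of arginine for mTORC1, was at 7.097 ± 1.26 CPM in the tumor libraries against 12.8 ± 1.87 CPM in the intestine libraries (SD of 4 libraries each). Its log2 fold change was -0.85 ± 0.17, and 0.01 with library totals alone. Slc38a7, which exports glutamine from lysosomes, was at 19.6 ± 1.65 and 21.5 ± 2.05 CPM, and Slc15a4 at 15.7 ± 2.59 and 16.1 ± 1.66 CPM. Slc36a4 had a log2 fold change of 0.83 ± 0.27 with overlapping groups, and it was not called without intestine library 1 (edgeR adjusted p = 0.0503).

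Outside these lists, 11 of the remaining 19 genes were tested, and 6 fell, 1 rose and 4 did not pass; with library totals alone 5 fell and 4 rose. Slc7a15, a light chain of rodents, was at 0.662, 1.54, 0.713 and 0.767 CPM in the tumor libraries against 154, 124, 249 and 274 CPM in the intestine libraries, one of the largest falls at a log2 value of -7.77 ± 0.42. Slc38a8 had 0 counts in the tumor libraries and 362 in small intestine, at least 46.2-fold lower in tumor with each tumor library at a floor of 3 counts. Slc15a5, a relative of the peptide carriers, had 3 counts in tumor and 176 in small intestine, a ratio of 88.5 in favour of intestine with a 95% exact binomial interval of 29.8 to 433. Its log2 fold change of -6.26 stood at -7.14 without tumor library 2. Slc38a6 fell from 10.9 ± 0.638 to 4.24 ± 0.402 CPM, a log2 fold change of -1.36. Of the 50-base stretches in Slc38a6 transcripts, 22.8% also occur in transcripts of other genes, which may affect its counts. Slc43a3, a carrier of purine bases, rose from 4.36 ± 2.19 to 16.02 ± 2.76 CPM, a log2 fold change of 1.87. Slc38a10 changed least among the called genes, at 136 ± 8.95 CPM in the tumor libraries against 175 ± 12.4 CPM in the intestine libraries, and its log2 fold change of -0.36 turned to 0.51 with library totals alone and was not called when no low-count filter was used (edgeR adjusted p = 0.0561). Slc7a4 was at 10.9 ± 0.705 and 11.4 ± 1.66 CPM and did not pass the test, nor did Slc15a2, Slc36a2 and Slc7a6os, the last of which was called without tumor library 4 (edgeR adjusted p = 0.0464). Slc36a3os fell, at under 1 CPM in each library. The 17 members left untested did not exceed 0.759 CPM in any library, and 2 of them had no count at all.

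Per length, the carriers that dominated each tissue were different ones. In the deposited FPKM values, which scale for gene length and library size, the 6 most abundant carriers of a library held 71.0 ± 2.95% of the summed carrier FPKM in small intestine and 61.2 ± 3.42% in tumor (SD, n = 4 each; 67 carriers, without Slc7a5). In small intestine the order was Slc6a19 (445 ± 108 FPKM), Slc6a8 (434 ± 69.8), Slc15a1 (263 ± 28.5), Slc7a9 (261 ± 29.8), Slc3a1 (240.4 ± 40.9), Slc7a7 (157 ± 21.6) and Slc43a2 (145.4 ± 10.02). Slc6a19 and Slc6a8 did not differ beyond their spread, nor did Slc15a1, Slc7a9 and Slc3a1, nor Slc7a7 and Slc43a2. In tumor the order was Slc38a4 (197 ± 66.2 FPKM), Slc1a5 (59.3 ± 14.99), Slc6a8 (53.4 ± 12.2), Slc38a2 (51.7 ± 4.78), Slc3a2 (49.2 ± 3.56), Slc6a6 (38.5 ± 8.75) and Slc38a10 (37.8 ± 2.84). Slc38a4 stood above the rest, while the genes from Slc1a5 to Slc6a6 did not differ beyond their spread, nor did Slc6a6 and Slc38a10. Slc7a5, absent from the FPKM values, was at 25.4 ± 2.97 CPM per kilobase in tumor. On that scale Slc3a2 was at 29.7 ± 1.64 and Slc1a5 at 29.1 ± 6.91 in tumor (SD of 4 libraries). The tumor order and shares in FPKM thus leave out an abundant carrier.

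Shares of the summed carrier FPKM do not depend on the scaling between libraries. Apical carriers held 51.3 to 55.8% in small intestine and 5.94 to 7.19% in tumor, and basolateral carriers 11.8 to 15.1% and 4.24 to 5.13%. The heavy chain and dividing-cell group, without Slc7a5, held 5.45 to 6.997% in small intestine and 58.7 to 63.5% in tumor. These lists were chosen with earlier results of these data known, so the shares describe the lists and are not a test of them. In tumor 15.4 to 31.3% of the total came from Slc38a4 alone. The neurotransmitter, taurine, creatine and glycine group was closer, at 19.5 to 22.0% and 14.9 to 16.9%, most of it Slc6a8 and Slc6a6. The summed carrier FPKM was 2532 ± 254 in small intestine and 739 ± 64.4 in tumor (SD of 4 libraries each) on the authors' scale, for which the labels state no correction between libraries.

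**Figure D4:**
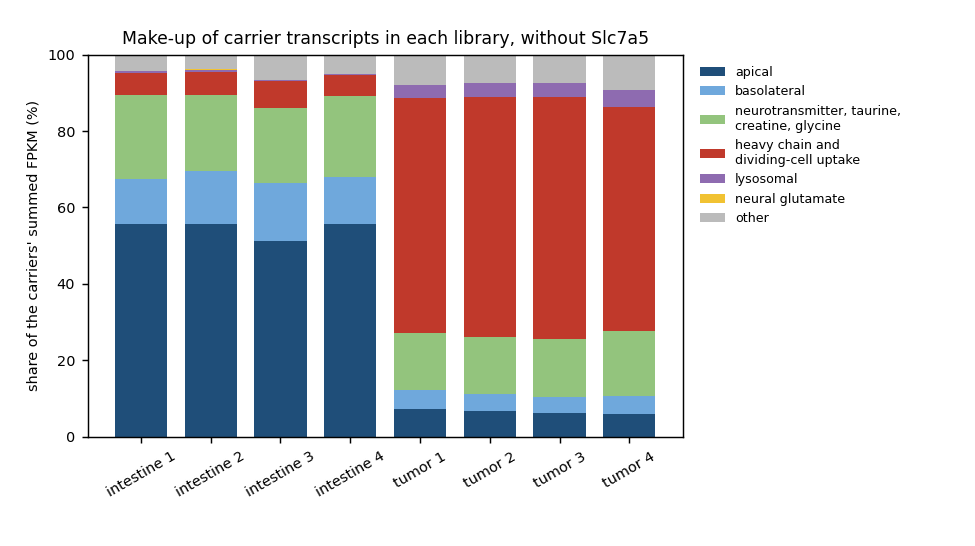
Share of the summed FPKM of 67 carriers (all except Slc7a5) held by each role in each library, as stacked bars that reach 100%. Apical carriers make up more than 51% of each intestine library and under 8% of each tumor library, where the heavy chain and dividing-cell group holds more than 58%. The roles were listed with earlier results of these data known, so the shares are descriptive.

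Several neighbouring carriers shared a direction. In GRCm38, Slc6a18 and Slc6a19 lie 1.72 kb apart on chromosome 13, and Slc6a20b and Slc6a20a lie 2.204 kb apart on chromosome 9; all 4 fell. Slc6a13 and Slc6a12, 5.34 kb apart on chromosome 6, both rose, as did Slc43a1 and Slc43a3, 73.0 kb apart on chromosome 2. On chromosome 15 Slc38a1, Slc38a2 and Slc38a4 follow each other with gaps of 44.5 and 295 kb, and all rose, though by log2 values from 0.92 to 13.16. Slc7a7 and Slc7a8, 304 kb apart on chromosome 14, both fell. Slc36a2 did not pass the test, whereas Slc36a1, 19.3 kb away on chromosome 11, fell.

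Genes that work beside the transporters were taken from lists of their partners and of amino acid handling. Among all tested genes 35.4% fell and 38.9% rose, or 17.6% and 62.0% with library totals alone. Anpep, a brush-border peptidase that binds Slc6a19, fell, with a log2 fold change of -7.04 ± 0.38. In this list of 5 genes 4 fell and 1 rose, the exception being Cd44, whose protein stabilizes Slc7a11 at the membrane, at 219.9 ± 15.4 against 17.2 ± 4.65 CPM; with library totals alone 3 fell and 2 rose. Other amino acid carriers fell in 3 of 3 tested cases, the basolateral aromatic amino acid carrier Slc16a10 at a log2 value of -3.42, the vesicular glutamate carrier Slc17a8 at -4.88 and the lysosomal cystine exporter Ctns at -1.47. Mitochondrial carriers fell in 6 of 7 cases, among them the ornithine carrier Slc25a15 (-4.20), the branched-chain amino acid carrier Slc25a44 (-2.27) and the glutamate carrier Slc25a22 (-2.18), and Slc25a29 rose at 0.54. With library totals alone 3 mitochondrial carriers fell and 3 rose.

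Of 15 genes of the ATF4 response to amino acid shortage, 4 were higher and 5 lower (8 and 3 with library totals alone). Of all tested genes, 38.9% were higher and 35.4% lower (62.0% and 17.6% with library totals alone). Phgdh, the first enzyme of serine synthesis, was at 70.7 ± 7.68 CPM in the tumor libraries against 7.47 ± 3.04 CPM in the intestine libraries, a log2 fold change of 3.24 ± 0.30. Cth, which makes cysteine, and the ATF4 target Trib3 fell, at -3.65 and -2.94. In amino acid sensing by mTORC1, 12 of 20 genes fell and 4 rose, but with library totals alone 3 fell and 10 rose. The falls that held under both scalings included the sestrin gene Sesn1 (-4.51), the Rag GTPase gene Rragd (-4.20) and Castor2, of the Castor family of arginine sensing (-3.17), and Fnip2 rose at 1.41. Of 8 genes of cystine use and glutathione 7 fell and none rose with TMM, while with library totals alone 1 fell and 3 rose. Ggt1, which splits extracellular glutathione, had a log2 fold change of -6.15 ± 0.24 under the first scaling and -5.28 under the second. The glutathione synthesis genes Gclm and Gclc fell at -1.07 and -1.05 and were not called with library totals alone, while the cystine carrier Slc7a11 rose under both scalings.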

How the data were processed

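Polyadenylated RNA of 4 tumor and 4 small intestine libraries was sequenced, and the labels give the tissue of each. The deposited counts are whole reads per gene with no normalization, and the authors' second table holds FPKM, which scales reads to gene length and library size. The tools named, per the submitters' processing notes, are STAR, HTSeq 0.6.0, Cufflinks 2.2.1 and FastQC, with build GRCm38; settings, annotation and strand are not given in the sources here. Symbols were found for 42462 of 43629 gene IDs, and coordinates come from GENCODE M21 (GRCm38).

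Counts were filtered with filterByExpr, TMM-scaled and tested with edgeR 4.0.16 (quasi-likelihood, tissue only, Benjamini-Hochberg over 17029 genes; R 4.3.3), and the code was tested on simulated counts. Ratios were tested with exact permutation in scipy 1.17.1. Alternatives were library totals alone, DESeq2 1.42.0 and its size factors, no low-count filter, a replicate block, limma 3.58.1 on log2(FPKM + 1) or log2(FPKM + 0.1) above a mean FPKM of 1 or for all genes, and leaving out each library. Slc7a5 was not in the FPKM table used here, so its ratio used counts where FPKM had been planned. Floors of 3 counts and 95% intervals cover counting error only, since reads carry no molecular identifiers.

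The 41 members with a mean of at least 10 CPM in either tissue or of known role were to be described singly, as were up to 3 genes with the largest changes, plus the largest in the other direction, from each outside list; Slc38a3, Slc38a5, Slc38a8, Slc6a12, Slc6a13, Slc6a17, Slc7a3, Slc15a2, Slc15a5 and Slc36a3os were added after their values were seen. Members and lists were chosen with earlier results of these data known. Of 204 listed symbols 200 were found. Some listed genes are not reported here.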

Additional observations from a re-analysis of the deposited data

Results flagged for a closer look

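In 10 of 82 groups of 4 libraries checked over the named transporter genes, 1 library stood far from the other 3 of its tissue by Dixon's criterion, which chance does in about 1 in 20 groups. In tumor library 4, Slc38a4 was lowest at 270.2 CPM, Slc3a1 was lowest at 8.47 CPM, Slc7a6os was lowest at 25.7 CPM, and Slc7a8 was highest at 24.3 CPM. Tumor library 2 had the highest tumor level of Slc7a15, at 1.54 CPM. In small intestine library 3, Slc36a1 was highest at 168 CPM, Slc6a9 at 11.6 CPM and Slc7a2 at 3.72 CPM. In small intestine library 2, Slc6a14 was highest at 38.4 CPM and Slc15a4 at 18.6 CPM. Of these genes, leaving out the library concerned changed the call for Slc6a14 and Slc7a6os, as given above, and the sign of the uncalled value for Slc15a4.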

How the results depend on the processing

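Of the 48 called transporter genes, 42 were called the same way in all 13 alternatives on counts (19 higher and 23 lower); the other 6 were Slc1a5, Slc36a4, Slc38a3, Slc38a9, Slc38a10 and Slc6a6. Leaving out 1 library gave 20 to 22 transporter genes higher and 26 to 29 lower, and 6410 to 6814 and 5629 to 6103 of all genes. The FPKM test covered 38 of the members at the filter, fewer than the 55 on counts, and called 20 higher and 15 lower with either pseudocount; without the filter it called 28 higher and 22 lower of 67. Over all genes, library totals alone gave 10564 higher and 2996 lower, against 6619 and 6030 with TMM. The FPKM test gave 8297 higher and 2326 lower of 12849 genes, 8282 and 2328 with the smaller pseudocount, and 11174 and 3007 of 25227 without the filter. Log2 fold changes near 0 changed sign, and apart from the scaling and the number of genes tested the cause was not tested. Slc15a4 was -0.03 and became 0.83 with totals, 0.0636 with no low-count filter, 0.68 and 0.79 with FPKM and pseudocounts 1 and 0.1, 0.68 without the FPKM filter, and -0.108 to 0.0704 with a library left out. Slc7a4 was -0.06 and became 0.80, 0.0319, 0.82, 1.00 and 0.82 in the same order, and -0.128 to 0.0319 with a library left out. Slc38a7 was -0.13 and became 0.73 with totals and 0.69, 0.80 and 0.69 with FPKM. Slc38a10 was -0.36 and became 0.51 with totals and 0.53, 0.55 and 0.53 with FPKM. Slc38a9 was -0.85 and became 0.0116 with totals and 0.0745 with FPKM without the filter. The 3 ratios taken from FPKM kept their direction and p on counts; that of Slc7a5 to Slc7a8 was computed on counts only.

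The titles number the libraries 1 to 4 in each tissue, and nothing in the labels says whether equal numbers mark the same mouse. The correlations of same-numbered libraries' deviations from their tissue means were -0.067, -0.076, 0.0136 and -0.159. Libraries of different numbers gave -0.0803 to 0.137. Such correlations cannot settle whether the numbers pair the libraries. With the replicate number as a block 20 transporter genes were higher and 27 lower, and 6301 and 5592 of all genes. Depth limits the genes near the floor of 3 counts.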

Other observations

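Slc15a2 (PepT2), the high-affinity peptide carrier best known from kidney, varied more within a tissue than between tissues. It stood at 0.276, 4.94, 5.25 and 0.169 CPM in tumor libraries 1 to 4 and at 2.45, 0.0177, 18.4 and 0 CPM in small intestine libraries 1 to 4. Tumor libraries 2 and 3 and intestine library 3 were high in an otherwise low gene, and the log2 fold change was -0.97 (edgeR adjusted p = 0.617). Without intestine library 3 it was 1.69 (edgeR adjusted p = 0.401). By family, 3 of 6 tested Slc1 carriers rose and 3 fell (3 and 3 with library totals alone), and of 10 tested Slc38 carriers 4 rose and 5 fell (6 and 2 with library totals alone). Both Slc3 heavy chains fell under either scaling, and of 13 tested Slc6 carriers 4 rose and 8 fell (4 and 7 with library totals alone). Over all tested genes 38.9% rose and 35.4% fell (62.0% and 17.6% with library totals alone), and differences between families were not tested.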
